A study of Mus musculus with 12 samples.

Results

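The genes described here are 8 transcripts of the cerebellum measured in a mouse model of spinocerebellar ataxia type 7. They are the Purkinje cell proteins Pcp2 and Pcp4, the calcium-binding proteins Calb1 and Pvalb, and the less known genes Arhgef33, Dusp5, Fam107b and Mdfi. They were chosen by name. The last 4 were included because their values were low in the mutant at 29 weeks, so the 29-week genotype values below describe that choice and support nothing. All 8 had a row among the 7667 named genes of the deposited table.

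The study compared fxSCA7 92Q mice, in which ataxin-7 carries a run of 92 CAG repeats, with wild-type littermates of normal repeat length. The fxSCA7 line is known as a transgenic line in which a floxed human ataxin-7 sequence is driven by the regulatory region of the mouse prion protein gene. The labels name neither a promoter nor a Cre driver. The 4 groups were wild type at 12 weeks, 92Q at 12 weeks, wild type at 29 weeks and 92Q at 29 weeks, all from whole cerebellum. Each had 3 libraries, and each library pooled 3 mice. The table holds 1 whole-number score per gene and condition, with the libraries already combined, so there is no replicate error, no test and no p-value, and "higher" and "lower" describe 4 values per gene. Neither the unit of the score nor the depth of a library is stated in the labels or headers. Levels are therefore compared across conditions within a gene and not between genes. The only error that can be given is the range that rounding to a whole number allows.

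Purkinje cells are the inhibitory neurons that carry the output of the cerebellar cortex. Climbing fibre input evokes large calcium transients in them, which are shaped by a high content of EF-hand buffer proteins. Calbindin (Calb1) is found among cerebellar neurons mainly in Purkinje cells, while parvalbumin (Pvalb), a slower buffer, is also made by the interneurons of the molecular layer. Pcp4, also called PEP-19, is a small IQ-motif protein that binds calmodulin and speeds its exchange of calcium. Pcp2, also called L7, carries GoLoco motifs that bind Gi/o alpha subunits. Dusp5 is a nuclear phosphatase that inactivates the kinase ERK, Arhgef33 belongs by sequence to the guanine nucleotide exchange factors, Fam107b is a paralog of the actin-associated Fam107a, and Mdfi encodes an inhibitor of MyoD-family transcription factors.

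All 8 are protein-coding genes. In mm10, by GENCODE M21, Pcp2 lies on chromosome 8 from 3623371 to 3625545 (minus strand), Pcp4 on chromosome 16 from 96467606 to 96525793 (plus), Calb1 on chromosome 4 from 15881264 to 15908064 (plus) and Pvalb on chromosome 15 from 78191114 to 78206400 (minus). Arhgef33 lies on chromosome 17 from 80307407 to 80400081 (plus) and Mdfi on the same chromosome from 47815328 to 47834691 (minus). Dusp5 lies on chromosome 19 from 53529109 to 53542431 (plus) and Fam107b on chromosome 2 from 3570488 to 3782142 (plus). The scores are given per gene name, so they do not separate transcripts of genes with several starts, such as Fam107b with its 8 annotated coding transcripts.

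RefSeq promoter windows (build GRCm38.p6, the assembly of mm10), each from 250 bases before to 50 bases after a transcription start, were read for 7 of the 8 genes. The first listed window of each gene was used. Windows of 4 genes are printed 5′ to 3′ on the gene's strand, because they hold a match to AGGTCA or to the CArG box, which are counted below. Capitals mark AGGTCA or its reverse complement TGACCT in the first 3, and in Dusp5 a pair of adjoining CArG boxes.
Pcp2 (chr8:3625498-3625797, minus strand): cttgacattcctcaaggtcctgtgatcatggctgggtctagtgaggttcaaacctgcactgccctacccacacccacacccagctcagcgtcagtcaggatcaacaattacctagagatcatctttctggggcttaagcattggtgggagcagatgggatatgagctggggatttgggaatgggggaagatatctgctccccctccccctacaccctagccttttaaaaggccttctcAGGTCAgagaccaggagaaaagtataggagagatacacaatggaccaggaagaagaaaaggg
Pcp4 (chr16:96467356-96467655, plus strand): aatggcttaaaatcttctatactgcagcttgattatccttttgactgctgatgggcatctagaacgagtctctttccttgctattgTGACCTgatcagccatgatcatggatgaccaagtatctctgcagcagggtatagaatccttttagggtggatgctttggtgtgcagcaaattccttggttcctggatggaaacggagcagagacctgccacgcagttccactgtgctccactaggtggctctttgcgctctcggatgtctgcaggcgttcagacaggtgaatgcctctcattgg
Arhgef33 (chr17:80307157-80307456, plus strand): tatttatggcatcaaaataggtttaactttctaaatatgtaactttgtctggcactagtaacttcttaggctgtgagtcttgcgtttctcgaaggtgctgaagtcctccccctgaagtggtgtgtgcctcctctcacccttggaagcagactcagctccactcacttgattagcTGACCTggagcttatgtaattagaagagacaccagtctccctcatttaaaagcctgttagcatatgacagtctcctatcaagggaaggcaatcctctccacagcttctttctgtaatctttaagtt
Dusp5 (chr19:53528895-53529194, plus strand): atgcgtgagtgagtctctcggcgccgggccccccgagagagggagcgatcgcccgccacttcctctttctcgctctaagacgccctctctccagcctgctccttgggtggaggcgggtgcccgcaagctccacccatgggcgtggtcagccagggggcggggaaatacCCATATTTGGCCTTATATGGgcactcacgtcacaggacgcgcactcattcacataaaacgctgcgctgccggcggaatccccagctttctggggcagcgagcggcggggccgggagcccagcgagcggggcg

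AGGTCA is the site bound as a monomer by the orphan receptor ROR alpha, a factor that Purkinje cells need in development. It was searched on both strands with no demand on the flanking bases, and occurred in the windows of Pcp2, Pcp4 and Arhgef33, or 3 of 7. Of 5846 measured genes with a window 11% held it, and of all 27025 genes with a window 16%. In Pcp2 it began 12 bases before the start, in Arhgef33 76 bases and in Pcp4 164 bases before it, in the last 2 on the opposite strand. The CArG box, the binding motif of serum response factor, occurred in 1.2% of measured genes and 2 times in Dusp5, beginning 82 and 72 bases before the start. The AP-1 motif TGANTCA occurred in 4.19% of measured genes and once in the group, in Fam107b, 36 bases before the start used here. None of the 7 windows held the E-box CACGTG (10.5% of measured genes), the TATA box with the letters TATAAA (5.94%), the full cyclic AMP response element TGACGTCA (3.68%) or the MEF2 motif (0.46%). The letters TTTAAA were found in Pcp2 and Arhgef33 (7.94% of measured genes) and the response element's shorter form ACGTCA in Dusp5 (13.3%). The motifs were chosen with the sequences in view. A match is a run of letters and not a measured binding site.

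The windows also differed in their CpG content. Pcp2 had 1 CpG, Arhgef33 2, Pvalb 5, Pcp4 6 and Mdfi 8, whereas Fam107b had 22 and Dusp5 28. The median over measured genes was 22. The windows of Pcp2, Pcp4, Pvalb, Arhgef33 and Mdfi were below that median, and those of Dusp5 and Fam107b at or above it.

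**Figure D1:**
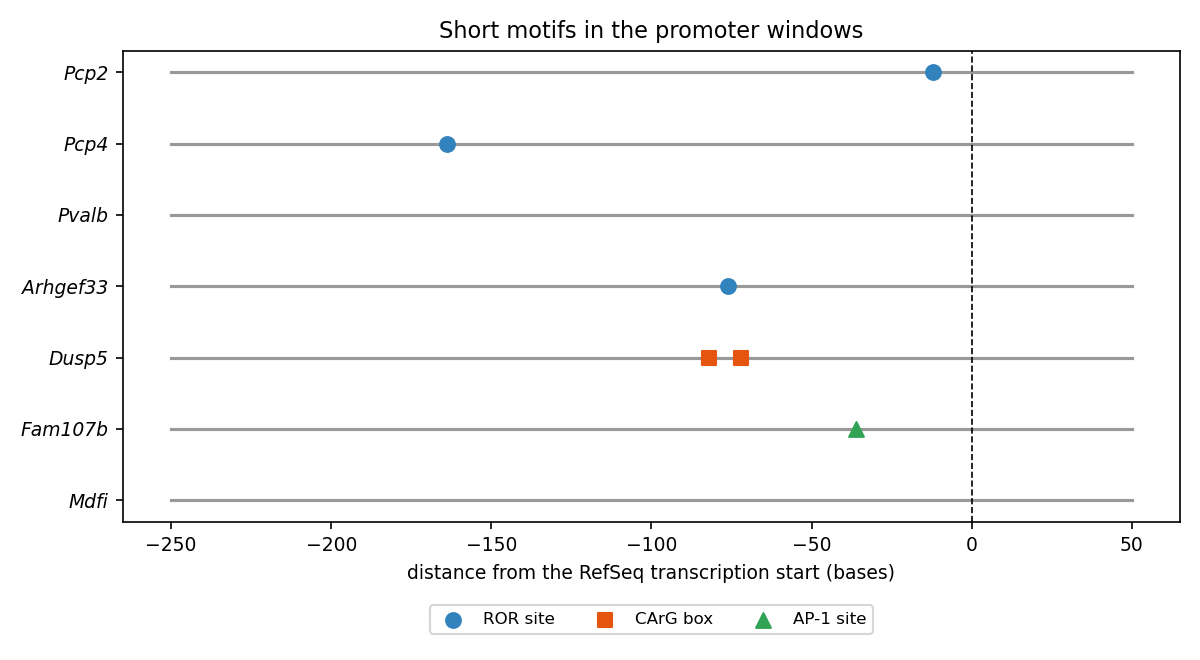
Positions of 3 short motifs in the RefSeq promoter windows of 7 genes. The x axis is the distance in bases from the transcription start (dashed line), each grey line is 1 window, and each symbol is the first base of a match on either strand. The ROR site is marked in Pcp2, Pcp4 and Arhgef33, the CArG box 2 times in Dusp5 and the AP-1 site in Fam107b.

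Among the Purkinje cell proteins, Pcp2 scored 1661 in wild type and 1241 in 92Q at 12 weeks, and 1324 in wild type and 871 in 92Q at 29 weeks. Pcp4 scored 1749 and 1318 at 12 weeks, and 1432 and 843 at 29 weeks. In both genes the youngest wild-type value was the highest, the oldest mutant value was the lowest, and the 12-week mutant value already lay below the 29-week wild-type value. The score in 92Q at 29 weeks was 52.4% of the 12-week wild-type score for Pcp2 and 48.2% for Pcp4.

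The calcium-binding proteins had the same highest and lowest conditions. Calb1 scored 426 in wild type and 347 in 92Q at 12 weeks, and 356 and 233 at 29 weeks. Pvalb scored 878 and 788 at 12 weeks, and 734 and 580 at 29 weeks. For Pvalb alone of the 8 genes, the 12-week mutant value was above the 29-week wild-type value. In 92Q at 29 weeks 54.7% of the 12-week wild-type level of Calb1 was measured and 66.1% of that of Pvalb, which was the highest share among the 8.

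The less known genes had scores of 89 or less. Arhgef33 scored 64 in wild type and 54 in 92Q at 12 weeks, and 58 and 33 at 29 weeks. Fam107b scored 73 and 55 at 12 weeks, and 64 and 34 at 29 weeks. Both followed the order of Pcp2, Pcp4 and Calb1. Dusp5 scored 88 and 76 at 12 weeks, and 89 and 46 at 29 weeks, and was the only member whose 2 wild-type values lay within rounding of each other. Mdfi scored 15 and 11 at 12 weeks, and 12 and 6 at 29 weeks. Mdfi is close to the smallest highest value of any row, which is 10, so its ratios are the least certain of the group. The shares of the 12-week wild-type level in 92Q at 29 weeks were 51.6% for Arhgef33, 52.3% for Dusp5, 46.6% for Fam107b and 40.0% for Mdfi.

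**Figure D2:**
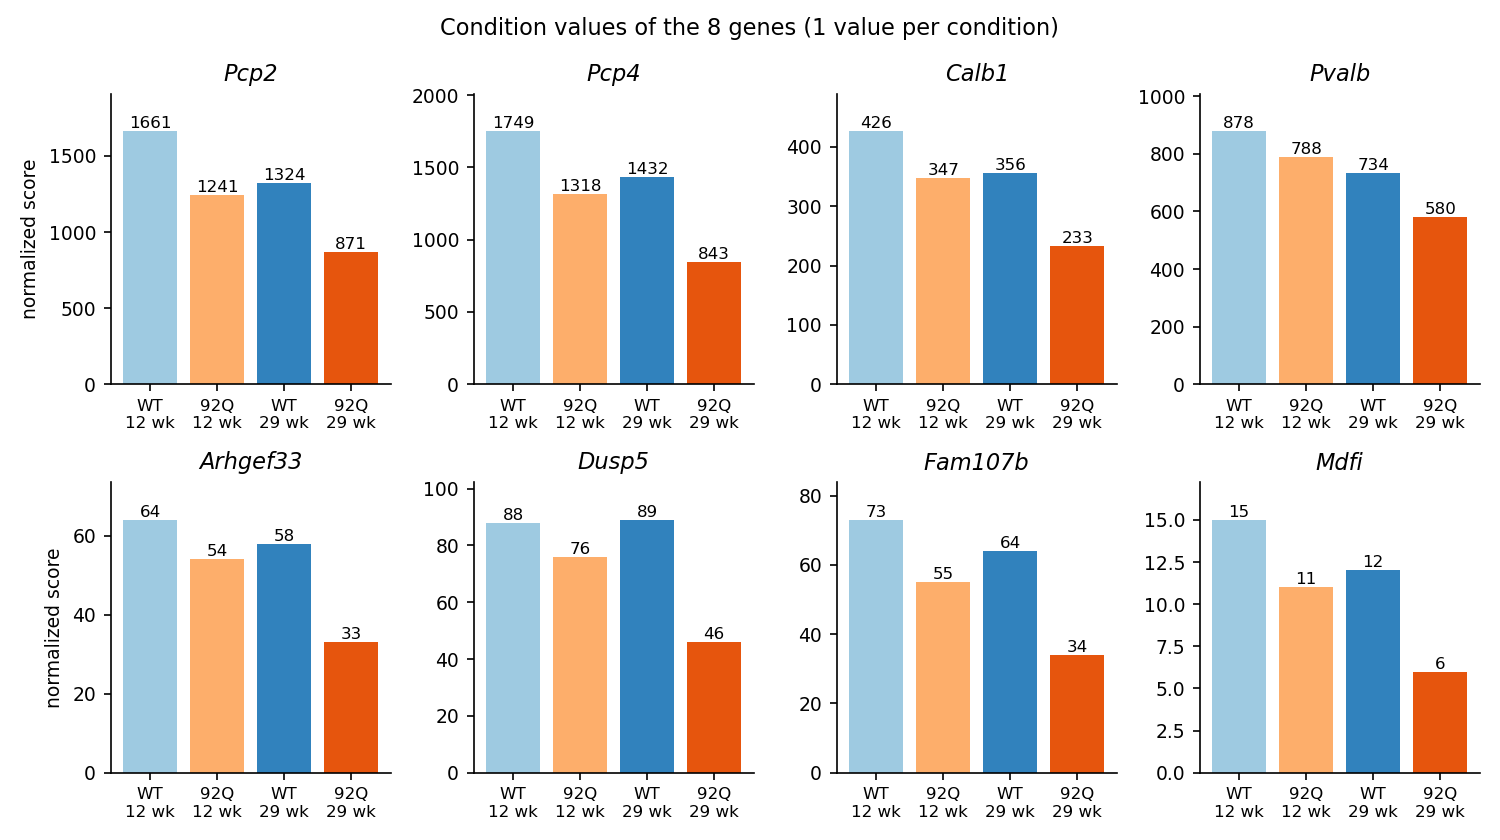
Normalized score of each of the 8 genes in the 4 conditions, 1 bar per condition with its value above it (WT, wild type; wk, weeks; each panel has its own y axis from 0). In every panel 92Q at 29 weeks is the lowest bar, and in every panel but that of Dusp5 wild type at 12 weeks is the highest.

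The order with wild type at 12 weeks highest, 92Q at 29 weeks lowest and the other conditions between them was found in 7 of the 8 genes and in 7.75% of all 7667. The rule used the 29-week values, so nothing is read from that count. The authors' deposited table of 99 selected genes held 7 of the 8 members with the same values, and Pvalb was not in it.

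The first comparison was of 92Q with wild type at 12 weeks. All ratios below are log2 ratios of value + 1, which understate differences of low genes, with the rounding range in parentheses. All 8 members were lower in 92Q. Of the 7660 genes compared, 36.7% were lower, 32.1% were higher and 2386 genes had equal scores. In this and the later shares, genes with equal scores count as not lower. The members' median log2 ratio was -0.35 against 0 over all genes. None was at least 1.5-fold lower (0.17% of all genes). Pcp2 had a ratio of -0.42 (rounding range -0.42 to -0.42) and Pcp4 one of -0.41. Calb1 was lower by a smaller amount, -0.30, and Pvalb had the smallest difference of the group, -0.16.

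Among the less known genes at 12 weeks, Fam107b had a ratio of -0.40 (-0.42 to -0.38) and Mdfi one of -0.42 (-0.52 to -0.31). Arhgef33 had a ratio of -0.24 (-0.27 to -0.22) and Dusp5 one of -0.21 (-0.23 to -0.19). Ranked from the lowest ratio of 7660, Pcp2 stood at place 24, Mdfi at 25, Pcp4 at 34 and Fam107b at 35. Calb1 stood at 72, Arhgef33 at 138, Dusp5 at 211 and Pvalb at 416. In percent, the 12-week mutant values were between 10.3% (Pvalb) and 26.7% (Mdfi) below wild type. Quantile normalization, which sets values by their rank in a column, gave 12-week ratios of -0.06 for Pcp2, 0 for Pcp4 and -0.03 for Pvalb and a median over the members of -0.20. Pcp4 held the highest value but 3 of the table in every condition except 92Q at 29 weeks, where its rank was 14, so this method cannot separate the first 3 conditions for it. The choice of the less known genes named only the 29-week difference, but all 8 members were chosen with the values of all 4 conditions known, so the 12-week values are a description too.

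At 29 weeks all 8 members were again lower in 92Q, against 26.1% of 7666 genes, and 7 were at least 1.5-fold lower, against 0.73%. These counts follow from how the genes were chosen and are given as a description. Pcp2 had a log2 ratio of -0.60, Calb1 one of -0.61 and Pcp4 one of -0.76. Pvalb, at -0.34, was the member below 1.5-fold. Arhgef33 was at -0.80 (-0.83 to -0.76), Dusp5 at -0.94 (-0.96 to -0.91), Fam107b at -0.89 (-0.92 to -0.86) and Mdfi at -0.89 (-1.05 to -0.74). The mutant values were 21% below wild type for Pvalb, 34.2% for Pcp2, 34.6% for Calb1, 41.1% for Pcp4, 43.1% for Arhgef33, 46.9% for Fam107b, 48.3% for Dusp5 and 50.0% for Mdfi. In the ranking from the lowest ratio, Dusp5 was at place 13 of 7666, directly after Gng13 and Grid2ip, and Arhgef33 at place 20. The ranks between them were held by Dusp1, Fam107b, Mdfi, the long noncoding RNA Gm5083, the collagen gene Col18a1 and the centrosomal protein gene Cep76.

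**Figure D3:**
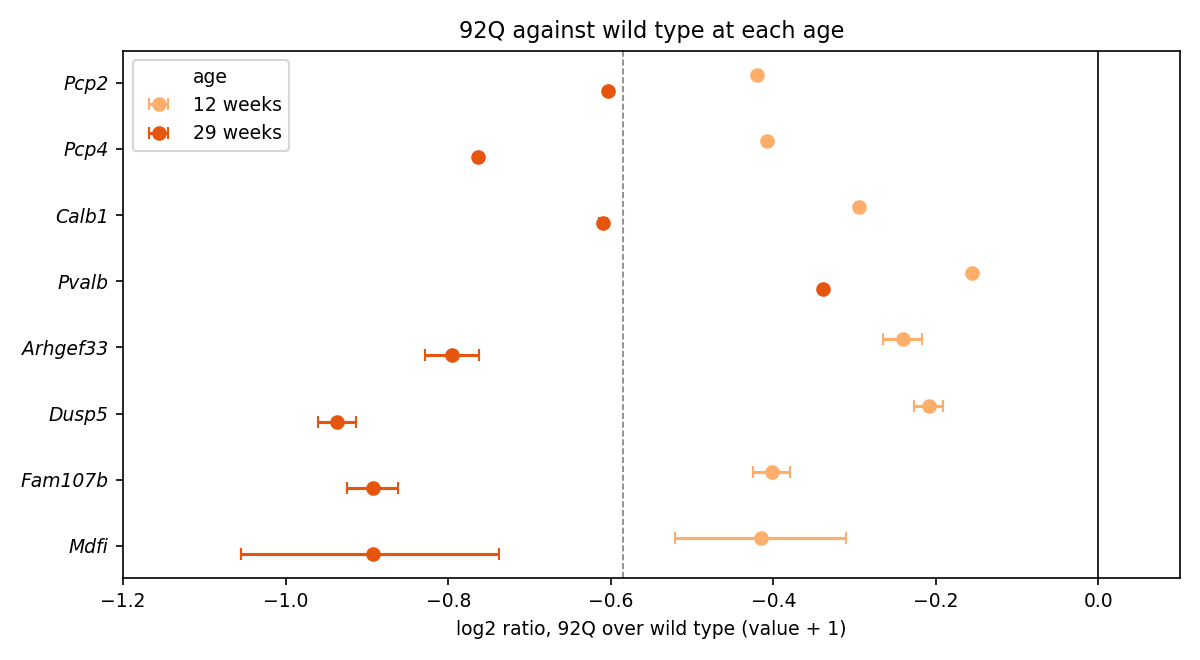
Log2 ratio of 92Q over wild type (value + 1) for each gene at 12 and at 29 weeks. Points are the ratios of condition values, bars are the range that rounding allows and are no replicate error, the solid line is 0 and the dashed line is 1.5-fold lower. Every 29-week point lies to the left of its 12-week point, and the bars of Mdfi are the widest.

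The difference between the ages was the next comparison. The 29-week log2 ratio minus the 12-week log2 ratio was below 0 for all 8 genes, against 36% of 7659 genes. It was -0.18 for Pcp2 and -0.18 for Pvalb, -0.31 for Calb1 (-0.32 to -0.31) and -0.36 for Pcp4. For the less known genes it was -0.48 for Mdfi (-0.74 to -0.22), -0.49 for Fam107b (-0.55 to -0.44), -0.55 for Arhgef33 (-0.61 to -0.50) and -0.73 for Dusp5 (-0.77 to -0.69). Dusp5 was the 1 member past 1.5-fold in this difference, against 0.261% of all genes. The rounding ranges of Pcp2, Pcp4 and Calb1 did not overlap those of Arhgef33, Dusp5 and Fam107b, whereas the wide range of Mdfi overlapped those of Pcp4 and Calb1. After quantile normalization 5 members passed 1.5-fold in this difference and after upper quartile scaling 2. Under the former Pcp4 was at -0.85, below Dusp5 at -0.75, and Pcp2 at -0.61, below Fam107b at -0.54, so the order of the members rests on the scaling. Because the less known genes were taken for their low 29-week values, the larger difference in them is fixed by the choice, and no test of it was possible.

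**Figure D4:**
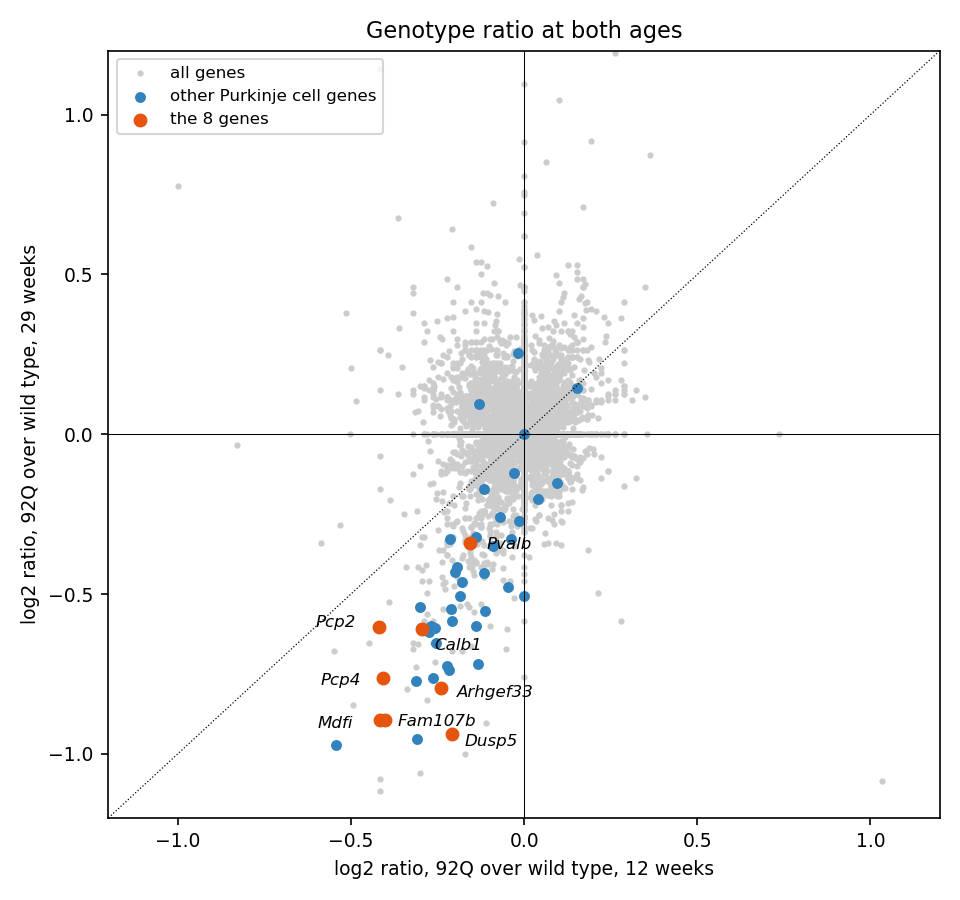
Log2 ratio of 92Q over wild type at 12 weeks (x axis) and 29 weeks (y axis). Grey points are all genes, blue points the 38 other Purkinje cell genes with a row and orange points the 8 genes; the dotted line marks equal ratios, and 21 of 7659 genes lie outside the axes of ±1.2. All 8 genes lie below the dotted line and to the left of 0.

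Age was compared within each genotype. These comparisons share columns with the genotype comparisons and are not separate evidence. In wild type 7 of the 8 members were lower at 29 than at 12 weeks, against 45.9% of 7663 genes, and none was at least 1.5-fold lower (0.144% of all genes). The ratio was -0.33 for Pcp2, -0.29 for Pcp4, -0.26 for Calb1 and -0.26 for Pvalb. It was -0.14 for Arhgef33 (-0.16 to -0.12), -0.19 for Fam107b (-0.21 to -0.17) and -0.30 for Mdfi (-0.40 to -0.20). Dusp5 differed by 0.02, with a rounding range from 0 to 0.03. Quantile normalization gave wild-type age ratios of -0.06 for Pcp2 and 0 for Pcp4, and a median of -0.10 in place of -0.26. The 29-week wild-type values of the Purkinje cell proteins and calcium-binding proteins were thus between 79.7% (Pcp2) and 83.6% (Calb1 and Pvalb) of the 12-week values.

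In 92Q all 8 were lower at 29 than at 12 weeks, against 35.4% of 7667 genes, and 5 were at least 1.5-fold lower, against 0.483%. Those 5 were Pcp4 (-0.64), Arhgef33 (-0.69), Dusp5 (-0.71), Fam107b (-0.68) and Mdfi (-0.78, rounding range -0.94 to -0.62). Calb1 had a ratio of -0.57, Pcp2 one of -0.51 and Pvalb one of -0.44. Pvalb had the smallest age ratio in 92Q as it had the smallest genotype ratio at each age.

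**Figure D5:**
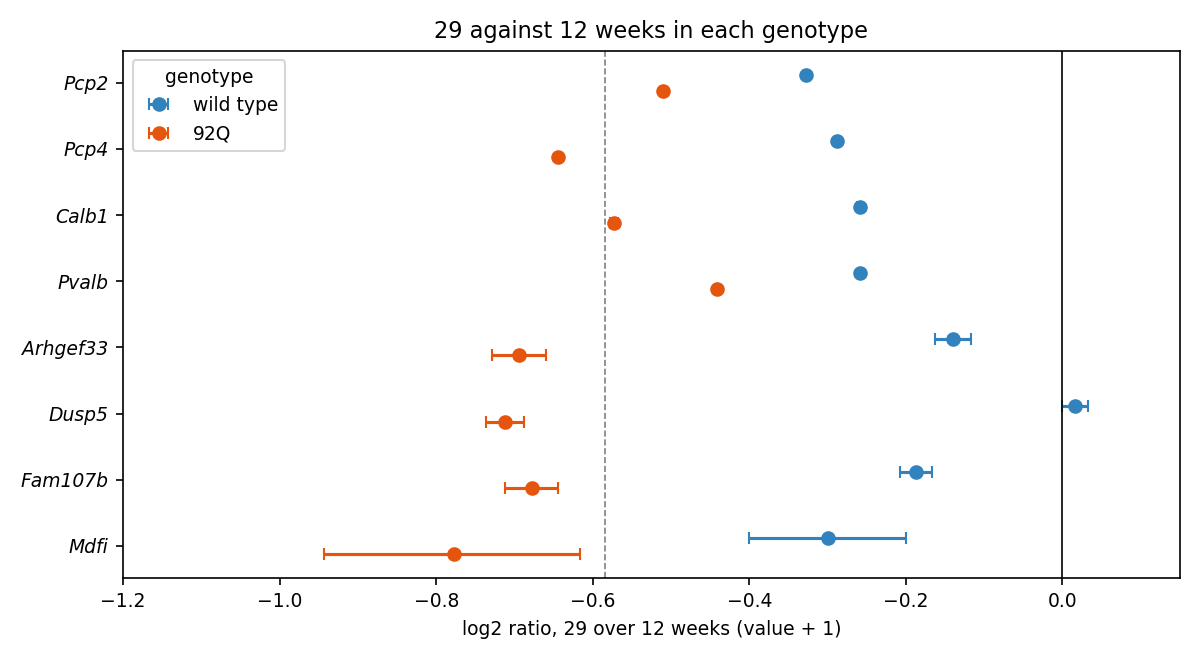
Log2 ratio of 29 over 12 weeks (value + 1) in wild type and in 92Q. Points are ratios of condition values and bars the range that rounding allows, the solid line is 0 and the dashed line is 1.5-fold lower. The 92Q point of each gene lies to the left of its wild-type point, and the wild-type point of Dusp5 lies at 0.02.

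The genes with the most similar pattern were found for each member. Likeness was the largest absolute difference over the 3 log2 ratios to 12-week wild type, so it rests on 4 condition values, and 4253 genes with a mean of 20 or more could be named. The 3 nearest genes of the 8 members gave 16 different genes, of which 7 were on the list of other Purkinje cell genes. That list held 34 of the 4253 genes. Likeness used the 29-week 92Q values by which 4 members were chosen, and the list was drawn up with these data known, so nothing is read from that count. Calb1 had among its 3 nearest genes Car8, whose product binds the IP3 receptor (307, 257, 263 and 167 in the order wild type and 92Q at 12 weeks, wild type and 92Q at 29 weeks), with a largest difference of 0.04, and the tubulin gene Tuba8.

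Arhgef33 was closest to Rgs8, a regulator of G protein signalling (294, 245, 262 and 154), with a largest difference of 0.03, the smallest of the 24 member and neighbour pairs, then to Sbk1 and Tuba8. Pcp2 was closest to Cck, the neuropeptide cholecystokinin (147, 112, 117 and 81), with a largest difference of 0.08, and had Gm5083 in the third place. Pcp4 and Fam107b shared their first 3 genes, Cep76, Gm5083 and Itpka, a kinase of IP3. Itpka was also the nearest gene of Mdfi, before Gng13 and Cep76. Dusp5 was closest to Grid2ip, which binds the delta glutamate receptor (30, 24, 30 and 15), with a largest difference of 0.10, then to the carbonic anhydrase Car7 and the calcium pump Atp2a3. Pvalb was closest to the phosphatase Ptprr (57, 53, 48 and 36) with 0.05, then to Slc16a11 and Hes3, none of which was on a list used here.

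The list of other Purkinje cell genes gives the surrounding of these values. Of its 42 genes 38 had a row. At 12 weeks 33 were lower in 92Q (86.8%, against 36.7% of all genes) and 3 higher, with a median log2 ratio of -0.16 and none at 1.5-fold. At 29 weeks 34 were lower (89.5%, against 26.1% of all genes) and 3 higher, with a median of -0.49 and 14 at least 1.5-fold lower, a size reached by 0.73% of all genes. The 4 with the largest ratio were Gng13 (-0.97), Grid2ip (-0.95), Itpka (-0.77) and Rgs8 (-0.76). Rora, the gene of ROR alpha itself, scored 65 and 61 at 12 weeks and 64 and 50 at 29 weeks. In wild type the older animals had lower scores for 25 of the 38 (65.8%, against 45.9% of all genes) and higher scores for 10, with a median of -0.06. In 92Q 34 were lower with age (89.5%, against 35.4% of all genes; median -0.37). The median over all genes was 0 in each of these 4 comparisons. The medians of the 8 members were -0.35 and -0.78 for genotype, -0.26 for age in wild type and -0.66 for age in 92Q. In bulk tissue fewer Purkinje cells and less RNA of a gene per cell cannot be told apart.

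Other EF-hand proteins were lower in some cases and higher in others at 29 weeks. Of 55 listed EF-hand proteins, which were not only buffers and sensors, 42 had a row. Of these 14 were lower and 23 higher in 92Q, with a median of 0.04, beside 26.1% lower and 49.5% higher over all genes. At 12 weeks 28 were lower and 11 higher, with a median of -0.04, beside 36.7% lower and 32.1% higher over all genes. None reached 1.5-fold at either age. The largest ratios at 29 weeks were those of the potassium channel subunit Kcnip1 (32 against 44, -0.45), the integrin-binding protein Cib2 (18 against 13, 0.44), the neuronal calcium sensor Hpcal1 (104 against 139, -0.42) and Kcnip4 (71 against 93, -0.38). Calb2, the calretinin gene and paralog of Calb1, was looked up after its values were seen. It scored 325 and 293 at 12 weeks and 249 and 259 at 29 weeks, so its genotype ratio was -0.15 at the younger and 0.06 at the older age.

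The relatives of the other members did not share 1 direction. Among small IQ-motif proteins, the Pcp4 paralog Pcp4l1 scored 85 in 92Q against 86 at 12 weeks and 110 against 92 at 29 weeks. Neurogranin (Nrgn) scored 49 against 69 and then 84 against 78, and Gap43 168 against 170 and then 154 against 147. At 12 weeks Nrgn was thus lower in 92Q, with a ratio of -0.49 beside the -0.41 of Pcp4. At 29 weeks all 3 were above wild type, where Pcp4 had the ratio of -0.76.

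Of 12 GoLoco proteins and Gi/o subunits, the partners and relatives of Pcp2, 8 had a row, and 4 were lower and 3 higher at 29 weeks (median -0.02), beside 26.1% lower and 49.5% higher over all genes. Gnao1 was 243 against 279 (-0.20), Gnai1 86 against 94 (-0.13), Rap1gap2 32 against 36 (-0.17) and Rap1gap 80 against 82 (-0.04). Gnai2 was 150 against 130 (0.20), Gpsm1 38 against 36 (0.08), Gnai3 14 against 13 (0.10), and Gnaz 21 in both.

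Of 22 dual-specificity phosphatases and ERK kinases 16 had a row, with 6 lower and 9 higher at 29 weeks and a median of 0.04, beside 26.1% lower and 49.5% higher over all genes. Dusp1, an immediate early gene, was the 1 at least 1.5-fold lower, with a ratio of -0.90 beside the -0.94 of Dusp5. It scored 26 and 24 at 12 weeks and 42 and 22 at 29 weeks, so unlike Dusp5 it was higher in older than in younger wild-type animals. Dusp10 (18 against 22), Dusp6 (10 against 12) and Dusp14 (16 against 19) followed, with ratios from -0.28 to -0.23.

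Fam107a, the paralog of Fam107b, scored 506 and 439 at 12 weeks and 452 and 370 at 29 weeks, with genotype ratios of -0.20 and -0.29. Like Fam107b it was lower at both ages, by a smaller ratio.

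Markers of other cells also differed in these comparisons. For Pvalb the interneurons are the nearest other source. Of 18 genes listed for parvalbumin-positive and other cerebellar interneurons 15 had a row. At 12 weeks 92Q exceeded wild type in 11 of them and fell short of it in 3 (median 0.07). At 29 weeks it fell short in 12 and exceeded in 1 (median -0.13). Over all genes 32.1% were higher at 12 weeks and 26.1% lower at 29 weeks. The summed score of the 15 was 1427 and 1447 at 12 weeks and 1469 and 1271 at 29 weeks. Among them Gad1, the GABA-synthesizing enzyme also made in Purkinje cells, was 144 against 185 at 29 weeks. Eomes, a gene of unipolar brush cells and not of parvalbumin-positive interneurons, was 6 against 19 at that age. The part of interneurons in the Pvalb values was not tested.

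Granule neuron markers had a median of 0.07 at 12 weeks and -0.09 at 29 weeks over 16 genes, with the glutamate receptor Grm4 at 100 against 143. Their summed score was 3445 and 3577, then 3114 and 2821. Microglia genes, with a row for 12 of 16, had a median of 0.00 over 10 genes at 12 weeks and of 1.07 over 12 at 29 weeks. The summed scores of the 12 were 175 and 177, then 204 and 441. The complement gene C1qa was 25 and 23, then 26 and 63. Choroid plexus genes, with a row for 7 of 13, had summed scores of 456 and 65, then 579 and 1711, and Ttr was 336 and 6, then 445 and 1403. Astrocyte and Bergmann glia genes had medians of -0.02 and 0.09 over 12. At 29 weeks 5 were lower and 7 higher, beside 26.1% lower and 49.5% higher over all genes. Their summed scores were 3991 and 3729, then 3791 and 4137. Among them the intermediate filament gene Gfap was 88 and 87, then 95 and 235. It was at least 1.5-fold higher at 29 weeks, as were 41 of 7666 genes. The lipoprotein gene Apoe was 1105 and 1094, then 1062 and 1552 (29-week ratio 0.55). Aldoc, which Purkinje cells also make, was 1284 and 1055, then 1227 and 924 (-0.41). Oligodendrocyte genes had medians of -0.09 and 0.17 over 10. Of 9 markers of neighbouring brain regions 2 had a row. Xist was 66 and 30, then 63 and 25, and the Y-linked Eif2s3y 0 and 12, then 6 and 15. The sex makeup of the pools thus differed together with genotype, and sex and genotype cannot be told apart. Eif2s3y also differed between the ages in wild type (0 and 6), so sex and age cannot be told apart there. In its title 1 of the 92Q libraries at 29 weeks carries a number apart from those of all other 29-week libraries, whose numbers lie close together. Its part in the 29-week values could not be separated. All 12-week libraries carry higher numbers in their titles than all 29-week libraries, so age and library number cannot be told apart. The part of these differences in the values of the 8 genes was not tested.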

How the data were processed

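Total RNA of whole cerebellum was sequenced from 12 libraries in 4 conditions, and per the labels' protocols it was extracted with TRIzol, cleaned with an RNeasy kit and read as single-end Illumina HiSeq libraries. Bowtie 0.12.7, SAMtools 0.1.12a, Cuffdiff 1.3.0 and mm10 are named, per the submitters' processing notes, without a role. The values the authors deposited are a whole-number score, 1 per gene and condition. No source used here gives its unit, normalization, annotation or filter, nor the depth of any library. The score had a median of 22 in each column, and every row reached 10 in some condition. A normalization that fixes the columns in this way can hide a shift shared by most genes.

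Of 7684 rows, 17 with a number for a name were left out. Log2 ratios used a pseudocount of 1 and genes that reached 5 in at least 1 of the conditions compared. Rounding ranges moved each value by 0.5. The limma fit planned for values per library could not be made, and no test was run. The 8 members were named by rule, together with the 3 genes nearest to each in pattern, short families in full and up to 4 genes per longer list with the largest 29-week ratio among those reaching 10 in 3 or more conditions. Calb2, Rora, the genes between members in the ranking, Ttr, Gfap, Apoe, Aldoc, Xist and Eif2s3y were added after their values were seen. The members, the further gene lists and the motifs were chosen with earlier results of these data known. Some genes that the rule names, and 1 of the lists, are not reported here. Alternatives were other pseudocounts, scalings, minimum values and thresholds. Gene positions came from GENCODE M21 and promoters from RefSeq GRCm38.p6. Ratios were computed in Python 3.11.15 with pandas 2.3.3 and numpy 2.4.6. The ratio, median ratio scaling and nearest-gene steps were tested on simulated data. For the nearest-gene step that test used only genes with higher scores than the less known genes, and the other scalings were not tested.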

Additional observations from a re-analysis of the deposited data

Results flagged for a closer look

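Only the genes named in the text were looked at for this, and other genes of the lists that are not named also changed sign between the ages. For 12 values of relatives and other marker genes, none of them a member, the same contrast pointed in opposite directions in the 2 ages or genotypes, each beyond its rounding range. With 1 value per condition the difference was not tested. Comparing the genotype ratio at 29 weeks with that at 12 weeks, the log2 difference was 0.591 for Nrgn, 0.0836 for Gap43, -0.0852 for Rap1gap, 0.2056 for Calb2, 1.3606 for C1qa, 0.5613 for Apoe and 7.2437 for Ttr. Comparing the age ratio in 92Q with that in wild type, it was 0.2159 for Gnai2, -0.7917 for Dusp1, -1.0121 for Eomes, -0.2937 for Gad1 and 0.5613 for Apoe. For Dusp5 the wild-type age ratio of 0.02 and the 92Q age ratio of -0.71 also differ in sign, but the wild-type ratio reaches 0 within rounding.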

How the results depend on the processing

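The number of members lower in each comparison stayed within 1.5 times its main value under pseudocounts of 0.1 and 5, 3 scalings, no minimum and a minimum of 20, which leaves Mdfi out. The count of lower members was 7 at 12 weeks and 6 for age in wild type after quantile normalization, where the ratio of Pcp4 was 0. Of 275 single-gene ratios under these settings none reversed its sign, where a ratio of 0 was not counted as reversed. A minimum cannot change a sign, and a pseudocount cannot change that of a ratio of 2 conditions, so many of the 275 could not reverse. Of the 275 ratios 83 moved outside the rounding range of the main ratio. The number of members at least 1.5-fold lower in the change between ages was 1, but 2 after upper quartile scaling and 5 after quantile normalization. The members' median ranged from -0.35 to -0.20 at 12 weeks, from -0.84 to -0.68 at 29 weeks, from -0.26 to -0.10 for age in wild type from -0.68 to -0.59 for age in 92Q and from -0.62 to -0.33 for the change between ages. Under no scaling was the median of all genes further than 0.0324 from 0 in any comparison. Over the whole table, the number of genes at least 1.5-fold lower in 92Q was 13 at 12 weeks and 56 at 29 weeks. It was 45 and 165 at a lower threshold of 0.32 on the log2 scale, 10 at 29 weeks at a threshold of 2-fold, and 8 at 12 weeks with a minimum of 20. For age in 92Q it was 37, but 177 at the lower threshold, 3 at 2-fold and 20 with a pseudocount of 5. For age in wild type it was 11, but 112 at the lower threshold, 5 at 2-fold and 7 with a pseudocount of 5 or a minimum of 20. For the change between ages it was 20, but 103 at the lower threshold, 6 at 2-fold, 13 with a pseudocount of 5, 33 after quantile normalization and 7 with a minimum of 20. No paired analysis was possible because the columns hold 1 combined value per condition, and for the same reason no library could be left out. Depth is unknown, so low scores such as those of Mdfi have an error larger than their rounding range shows.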
